A study of Saccharomyces cerevisiae with 4 samples.

Results

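Copper is needed by a few enzymes of budding yeast (Saccharomyces cerevisiae) and is toxic when free, so cells balance its uptake, its delivery and its binding by metallothionein. Metallothioneins are small cysteine-rich proteins that bind copper ions. In yeast, the factor Cup2 (also called Ace1) binds copper and then activates the metallothionein genes, while the factor Mac1 activates the genes of high-affinity copper uptake when copper is scarce. The 10 genes described here cover these branches: CUP1-1, CUP1-2, CRS5 and SOD1 as targets of Cup2, CUP2 itself, the transporter genes CTR1, CTR2 and CTR3, and the delivery genes CCC2 and ATX1. They were taken by name out of the 5500 reading frames listed, after CUP1-1 and CUP1-2 had been seen among the highest ratios in these data. Their ratios between bre1 and wild type are therefore given as a description. Where calls from the fit over all genes are printed for them, nothing is read from these calls.

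The study compared polyadenylated RNA of a strain labelled bre1 with that of a wild type on 4 arrays, each hybridised with both RNAs in 2 dyes. BRE1 encodes the ubiquitin ligase for histone H2B, and the labels give neither the kind of mutation nor the strain background, growth medium, copper supply or mating type. On arrays 1 and 3 Cy3 marked bre1 and Cy5 the wild type, and arrays 2 and 4 had the dyes the other way round. Nothing says that the arrays came from separate cultures, so the spread and the p-values below measure differences between arrays, which may be technical. Each value is an average over a culture, in which a change in some cells and a smaller change in every cell cannot be told apart.

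The arrays held between 4354 and 4759 values each, and 3840 frames had a value on every array. Over these frames Pearson's r across genes was 0.75 for arrays 1 and 3 and 0.54 for arrays 2 and 4, which share a dye orientation. Between orientations, array 2 gave 0.65 with array 1 but 0.31 with array 3, and array 4 gave 0.24 with array 1 and 0.20 with array 3. Several of the copper genes differed in sign between array 4 and arrays 1 to 3, so their means are given with and without it. Since these values led to the choice of array 4, the means without it are a description and no support. BRE1, the gene for which the strain is named, had log2 ratios of -1.65 on array 1 and -3.17 on array 3, and no value on arrays 2 and 4.

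The deposited numbers also show how they were made. Raised as powers of 2, all distinct values of arrays 2 and 4 were whole multiples of 1 step per array, within 0.1 of a step, as ratios recorded to 3 decimals and multiplied by 1 factor would be. On arrays 1 and 3 this held for the inverse of the ratio in place of the ratio. With base 10 or the natural base, or with the opposite sign, the share on whole steps was between 17.0% and 24.1%, where 20% of the range lies within that tolerance. The values were therefore log2 ratios scaled by a single factor per array, and arrays 1 and 3 had been turned relative to arrays 2 and 4, so that all 4 run the same way. Whether the common direction is bre1 over wild type is likely and not settled: it holds if the scanner recorded Cy5 over Cy3, and BRE1 is low on that reading. All values below are read in this direction.

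Of the 10 genes, 8 had a value on every array, ATX1 had values on 3 arrays and CUP2 had none. The metallothionein copies CUP1-1 and CUP1-2 were higher in bre1 on all 4 arrays. They were at least 4.10-fold higher on arrays 1 to 3, and 2.03-fold and 1.91-fold higher on array 4. The second metallothionein gene, CRS5, stayed close to a ratio of 1, and the transporter genes CTR1 and CTR2 were lower on arrays 1 to 3 and not on array 4. In limma's test over all genes, 2 of the 8 (CUP1-1 and CUP1-2) were higher and none lower past an adjusted p of 0.05, where 10.7% of all 3840 genes passed in either direction, 5.89% higher and 4.79% lower. Other settings changed which of the 8 passed. With the trend on gene length removed, where 484 of 3821 genes passed (288 lower), CTR2 passed as lower. Without array 4, where 677 of 3840 genes passed (373 lower), CTR1 and CTR2 passed as lower. Both CUP1 copies passed in each of these settings. Without array 2 none of the 8 passed, and none of the 3840 genes did. A single sign on all 4 arrays was found for 3 of the 8 (CUP1-1, CUP1-2 and CRS5, each above 0), against 35.7% of all genes, 19.1% above 0 and 16.6% below. The CUP1 copies, described below as 1 measurement, are counted as 2 genes in these counts. Nothing is read from these counts, or from which of the 8 passed in any setting. These ratios led to the choice of the genes and to the singling out of array 4.

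**Figure D1:**
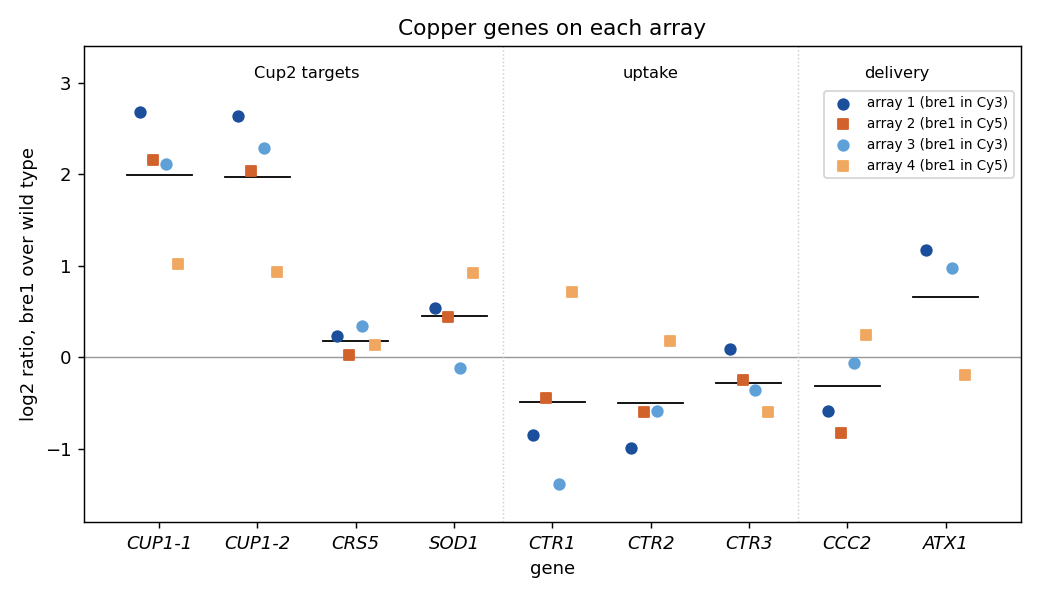
Log2 ratio of bre1 over wild type (vertical axis) for the 9 copper genes with a value, 1 point per array, with circles for bre1 in Cy3, squares for bre1 in Cy5 and a black line at the mean. All points of CUP1-1 and CUP1-2 lie at 0.93 or above, and on array 4 CTR1 and CTR2 lie above 0 while ATX1 lies below it.

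CUP1-1 (YHR053C) and CUP1-2 (YHR055C) encode the main metallothionein of yeast, the protein on which copper tolerance chiefly depends. The log2 ratio of CUP1-1 was 2.67, 2.16, 2.11 and 1.02 on arrays 1 to 4, which corresponds to 6.38-fold, 4.47-fold, 4.31-fold and 2.03-fold higher levels in bre1. Arrays 1 to 3 were close together and array 4 was the lowest. Among the 3840 genes CUP1-1 ranked 2nd, 2nd, 7th and 126th from the top on these arrays, and 2nd by its mean of 1.99 ± 0.69 (SD, n = 4). The log2 ratio of CUP1-2 was 2.63, 2.04, 2.29 and 0.93, with a mean of 1.97 ± 0.74 (SD, n = 4). The copies are near-identical and a probe for either may read both, so they count as 1 measurement made on separate spots. On no array did they differ by more than 0.18 on the log2 scale.

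The ratio of CUP1 was high in either dye orientation. For CUP1-1 the mean log2 ratio was 2.39 on the arrays with bre1 in Cy3 and 1.59 on those with bre1 in Cy5. The contrast of Cy5 minus Cy3 arrays was -0.80 for CUP1-1 and -0.98 for CUP1-2, where the 5th and 95th percentiles over all genes were -0.69 and 0.95. On the Cy5 arrays, array 2 gave 2.16 and array 4 gave 1.02 for CUP1-1. Without array 4 the means were 2.31 for CUP1-1 and 2.32 for CUP1-2.

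CRS5 (YOR031W) encodes the second metallothionein of yeast, also activated by Cup2. Its log2 ratio was 0.24, 0.02, 0.34 and 0.13, with a mean of 0.18 ± 0.14 (SD, n = 4). All 4 values were above 0 and none approached those of CUP1. The mean of the CUP1 copies exceeded CRS5 on the same array by 2.42, 2.08, 1.86 and 0.84 on the log2 scale.

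SOD1 (YJR104C) encodes the cytosolic copper and zinc superoxide dismutase, which also binds copper, and is a further target of Cup2. Its log2 ratio was 0.54, 0.44, -0.11 and 0.92, with a mean of 0.45 ± 0.43 (SD, n = 4). Array 4, the lowest for CUP1, was the highest for SOD1, and array 3 lay below 0. CUP2 (YGL166W), the gene of the activator itself, has no value on any array, so its own level cannot be set beside these.

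CTR1 (YPR124W) encodes the high-affinity copper transporter of the plasma membrane and is activated by Mac1. Its log2 ratio was -0.84, -0.44, -1.38 and 0.71, with a mean of -0.49 ± 0.89 (SD, n = 4), smaller than its spread. Arrays 1 to 3 were low and array 4 was high: CTR1 was 27th from the bottom on array 3 and 376th from the top on array 4. Without array 4 the mean was -0.89. Its contrast of Cy5 minus Cy3 arrays, 1.25, lay above the 95th percentile of all genes, and both Cy5 arrays lay above both Cy3 arrays. The part of the dye in this pattern was not tested.

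CTR2 (YHR175W) encodes a copper transporter of the vacuolar membrane, which returns stored copper to the cytosol. Its log2 ratio was -0.98, -0.60, -0.58 and 0.18, with a mean of -0.50 ± 0.49 (SD, n = 4). As for CTR1, arrays 1 to 3 were low and array 4 was above 0, and without array 4 the mean was -0.72. CTR3 (YLR411W) encodes a further high-affinity transporter of the plasma membrane, whose promoter carries a transposon in several laboratory strains. Its log2 ratio was 0.09, -0.25, -0.36 and -0.60, with a mean of -0.28 ± 0.29 (SD, n = 4). Its order over the arrays was unlike that of CTR1 and CTR2, with array 4 the lowest, and without array 4 its mean was -0.17.

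CCC2 (YDR270W) encodes the copper pump of the secretory pathway, and ATX1 (YNL259C) the small chaperone that carries copper to it. The log2 ratio of CCC2 was -0.59, -0.83, -0.06 and 0.24, with a mean of -0.31 ± 0.49 (SD, n = 4). Arrays 1 and 2 were low, array 3 was near 0 and array 4 was above it, and without array 4 the mean was -0.49. ATX1 had log2 ratios of 1.17, 0.98 and -0.19 on arrays 1, 3 and 4, with a mean of 0.65 ± 0.74 (SD, n = 3). The pump and its chaperone thus had means of opposite sign, over 4 and 3 arrays, and each crossed 0 on array 4. The genes also differ in length, which is described below. ATX1 was left out of the fit for want of a value on array 2, and without array 4 its mean was 1.08.

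In the order of their means the genes ran from CUP1-1 and CUP1-2 through ATX1, SOD1, CRS5, CTR3, CCC2 and CTR1 to CTR2. Between CUP1-2 and ATX1 lay the largest gap, wider than the SD of either gene. CRS5 and CTR3 also differed by more than the SD of either. All other neighbours in this order differed by less than the larger SD of the pair.

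The comparison of Cup2 targets with uptake genes was made within each array, which removes any shift common to the array. The median log2 ratio of the 4 target genes minus that of the 3 uptake genes was 2.43, 1.68, 1.81 and 0.75 on arrays 1 to 4, with a mean of 1.67 ± 0.70 (SD, n = 4 arrays). The difference was above 0 on each array and smallest on array 4. CTR2, counted here with the uptake genes, encodes a transporter of the vacuolar membrane, and its value was the group median on arrays 3 and 4. Since the CUP1 copies are 1 measurement, counting them as 1 gene gives a mean difference of 0.98 ± 0.28 (SD, n = 4). Without CUP1, so for CRS5 and SOD1 alone, it was 1.23, 0.67, 0.70 and 0.35, with a mean of 0.74 ± 0.37 (SD, n = 4). The genes were grouped by role with these values known, so no p is given.

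**Figure D2:**
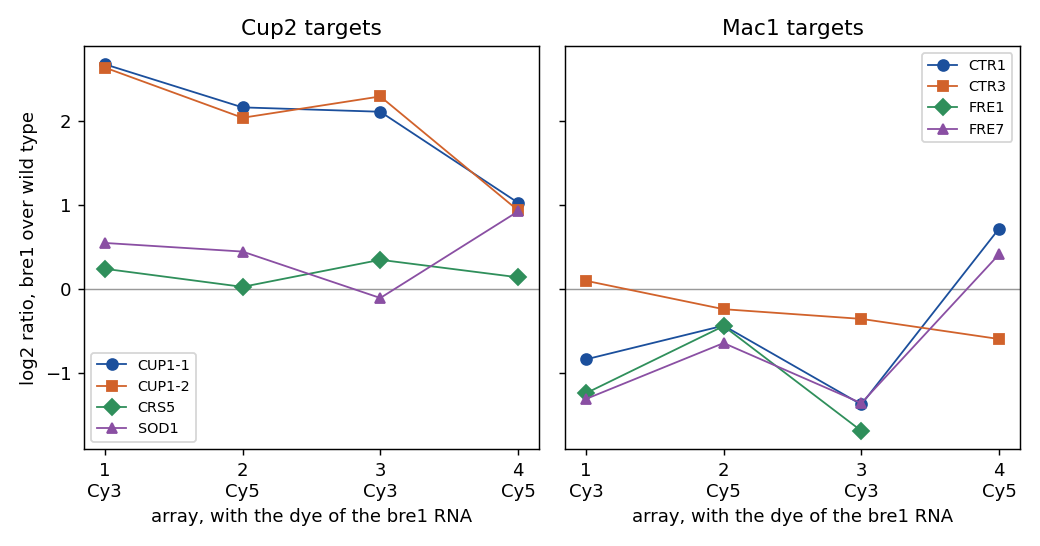
Log2 ratio of bre1 over wild type (vertical axis) on each array (horizontal axis, with the dye of the bre1 RNA) for the Cup2 targets on the left and the Mac1 targets on the right. Lines join the values of 1 gene to help the eye and imply no order. CTR1, FRE1 and FRE7 were low on arrays 1 to 3, and CTR1 and FRE7 were above 0 on array 4, where FRE1 has no value.

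Among the other Mac1 targets, FRE1 and FRE7 encode metalloreductases of the cell surface, of which Fre1 reduces copper for uptake by Ctr1. FRE7 had log2 ratios of -1.32, -0.65, -1.37 and 0.41, with a mean of -0.73 ± 0.83 (SD, n = 4, adjusted p = 0.119 in limma). FRE1, named after its values were seen because it lacks a value on array 4 and was not tested, had -1.25, -0.45 and -1.70 on arrays 1 to 3. These genes and CTR1 had the same order over arrays 1 to 3, lowest on array 3 and highest on array 2. MDL1 and ILV5, named below and outside copper handling, had this order too, and its share over all genes was not counted. The contrast of Cy5 minus Cy3 arrays was 1.22 for FRE7, above the 95th percentile of 0.95 over all genes. The part of the dye was not tested. Without array 4 the mean of FRE7 was -1.11, with an adjusted p of 0.00724 in limma. Array 4 had been singled out by the values of the copper genes, so this p is no support. Without array 1, 2 or 3 the mean of FRE7 was -0.54, -0.76 or -0.52, with adjusted p of 0.355, 0.256 and 0.320 in limma. CTR3 did not share this order. Over the Mac1 targets CTR1, CTR3, FRE1 and FRE7 together, the medians by array were -1.05, -0.44, -1.37 and, without FRE1, 0.41.

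A wider list of 32 other genes held 26 with a value on every array. It covers copper and metal handling and also 4 neighbours of CUP1, all tested, that were listed for their position. Of the 26 tested genes, 3 rose, 1 of them the CUP1 neighbour YHR054C, and 3 fell. Over all genes 10.7% passed the threshold in either direction. The median of the mean log2 ratios of the 26 was -0.01, against 0.02 over all genes. The list was drawn up with earlier results of these data known, in which some of its genes had been named, and it is no independent evidence.

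Of 6 tested genes for copper delivery in mitochondria, 1 rose and none fell. COX17, which encodes the copper chaperone for cytochrome oxidase, had log2 ratios of 2.18, 1.20, 2.16 and -0.22, with a mean of 1.33 ± 1.13 (SD, n = 4, adjusted p = 0.0483 in limma). Like ATX1, it was high on arrays 1 and 3 and below 0 on array 4, and without array 4 its mean was 1.85. The mean log2 ratios of the remaining 5 genes lay between -0.19 and 0.54, and none passed. Of the superoxide dismutase genes, SOD2, for the mitochondrial manganese enzyme, rose to a mean log2 ratio of 0.72 ± 0.31 (SD, n = 4, adjusted p = 0.0338 in limma). CCS1, the gene of the chaperone that loads copper into Sod1 (named after its values were seen), did not pass and had a mean of 0.15 ± 0.15.

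Of 3 tested genes of the copper-dependent oxidases and their loading, 1 fell. GEF1, a chloride channel gene of the secretory compartments where copper is loaded into Fet3, had log2 ratios of -0.96, -0.86, -0.72 and -0.52, with a mean of -0.76 ± 0.19 (SD, n = 4, adjusted p = 0.0222 in limma). FET3, the multicopper oxidase gene of iron uptake, did not pass (named after its values were seen). It had -1.26, -0.46, -1.21 and 0.17, low on arrays 1 to 3 as CTR1 was. Of 5 tested genes of other copper transport and tolerance, 2 fell. FRE6, a metalloreductase of the vacuole, had log2 ratios of -1.43, -0.64, -1.36 and -0.42, with a mean of -0.96 ± 0.51 (SD, n = 4, adjusted p = 0.0271 in limma). SMF1, a manganese transporter gene, had a mean of -0.86 ± 0.51 (SD, n = 4, adjusted p = 0.0353 in limma).

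None of the 3 regulators and none of the 2 tested genes of other metals passed. MAC1, which encodes the activator of the uptake genes, had 0.04, 0.66, -0.44 and 0.33, with values on either side of 0. CUP9, a repressor gene whose loss affects copper tolerance, had a mean of 0.29 ± 0.25. The zinc and cobalt transporter genes of the vacuole, ZRC1 and COT1, had means of -0.60 ± 0.66 and -0.55 ± 0.70, and both were low on arrays 1 to 3 and above 0 on array 4.

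The count of calls depended on which array was left out. Of 3840 genes, 54 passed without array 1 and none without array 2 (815 at an unadjusted p under 0.05 in limma). Without array 3 or 4, 187 and 677 passed. Few genes of any kind thus passed without array 1, and without array 2 no call of these 6 genes could be checked. Their adjusted p was between 0.0793 and 0.137 without array 1 and between 0.0773 and 0.143 without array 2. Without array 3, YHR054C passed and the other 5 were between 0.0526 and 0.137, and without array 4 all 6 passed. With 1 array left out the mean log2 ratio ran from -0.84 to -0.70 for GEF1, from -1.15 to -0.81 for FRE6 and from -1.06 to -0.69 for SMF1. It ran from 0.65 to 0.87 for SOD2, from 0.66 to 0.93 for YHR054C and from 1.05 to 1.85 for COX17. All of these but COX17 had 1 sign on all 4 arrays, so their means could not change sign. COX17 also missed the threshold on all 4 arrays with genes on at least 3 arrays tested (adjusted p = 0.0509), with arrays centred (0.0542) and with arrays centred and scaled (0.0662).

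**Figure D3:**
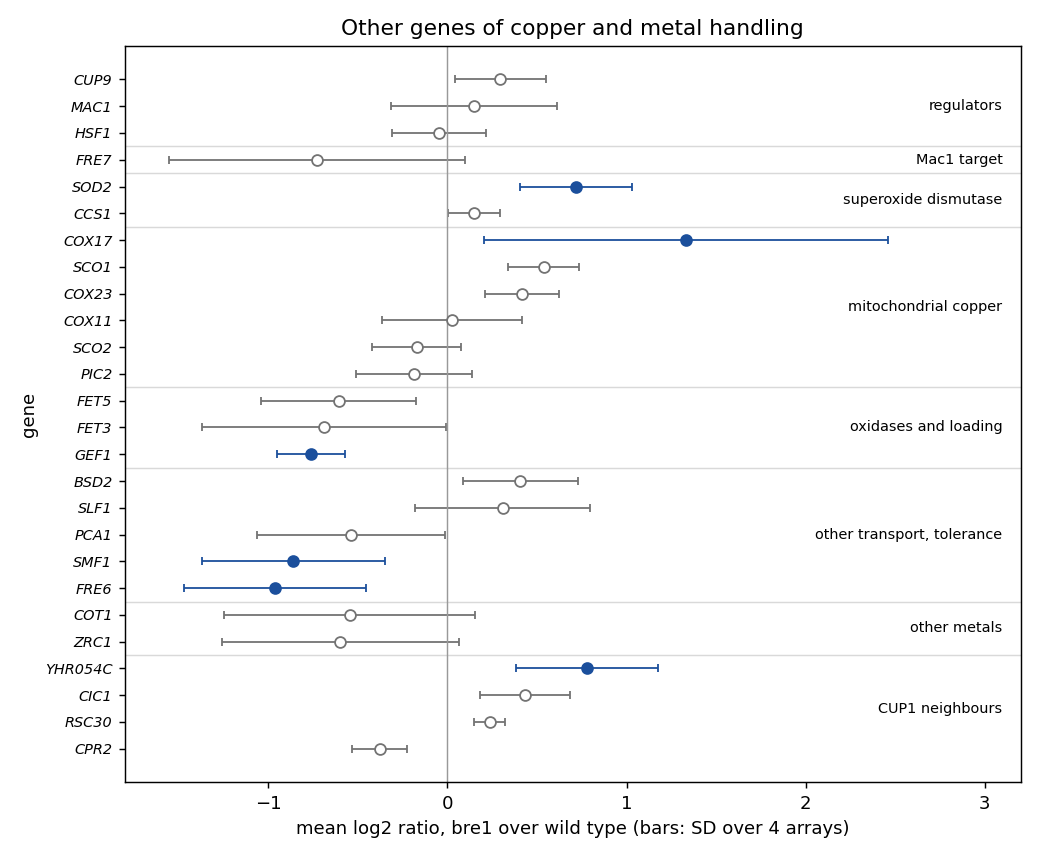
Mean log2 ratio of bre1 over wild type (horizontal axis, bars for the SD over 4 arrays) of the 26 tested genes of the wider list, grouped by role. Filled points passed an adjusted p of 0.05: SOD2, COX17 and YHR054C to the right of 0, and GEF1, SMF1 and FRE6 to the left.

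CUP1 lies in a tandem repeat whose copy number varies between yeast strains, and the reference shows it as CUP1-1 and CUP1-2 with YHR054C between them. YHR054C is a partial copy of RSC30, a gene of a chromatin remodeller subunit at the edge of the repeat. YHR054C had log2 ratios of 0.56, 1.13, 0.34 and 1.09, with a mean of 0.78 ± 0.40 (SD, n = 4, adjusted p = 0.0338 in limma), and rose. It was highest on arrays 2 and 4, while CUP1-1 was lowest on array 4. RSC30 itself had a mean of 0.24 ± 0.09 and did not pass, and since the genes share sequence their signals may not be separable. On the outer sides, CIC1, a ribosome assembly gene, had 0.43 ± 0.25 and CPR2, a cyclophilin gene, had -0.38 ± 0.15, neither past the threshold. The copy number of the repeat in these strains was not analysed here, and its part in the ratio of CUP1 was not tested.

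The genes with the highest ratios here are also among the shortest. The annotated length is 186 bp for each CUP1 copy, 210 bp for CRS5 and COX17, and 222 bp for ATX1, while CTR1 has 1221 bp and CCC2 3015 bp. The 34 tested genes of at most 300 bp had a median log2 ratio of 0.67, with 11 higher and none lower past the threshold, and this median was 1.03, 0.52, 0.48 and 0.17 on arrays 1 to 4. Genes over 2000 bp, such as CCC2, had a median of -0.05. For ATX1 the mean of 0.65 over 3 arrays was close to the median of the shortest class. The CUP1 copies had the highest means of the shortest class, and 70.6% of that class lay at or above CRS5.

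With the trend of the ratio on gene length removed within each array, the mean log2 ratio was 1.50 ± 0.42 for CUP1-1 and 1.48 ± 0.46 for CUP1-2 (SD, n = 4), and they ranked 5th and 7th of 3821 genes. CRS5 changed side, to -0.28 ± 0.26, and was below 0 on all 4 arrays. SOD1 had 0.17 ± 0.41, and COX17 and SOD2, at 0.86 and 0.55, did not pass (adjusted p = 0.0865 and 0.0697 in limma). CPR2, at -0.59, then passed (adjusted p = 0.0357). CTR2 and CTR3, at -0.73 and -0.44, were then below 0 on all 4 arrays as well. The difference between Cup2 targets and uptake genes was 1.31 in this form. It counts each CUP1 copy as a gene, while the other targets, CRS5 and SOD1, were at -0.28 and 0.17. The difference with the copies as 1 gene was not computed in this form. ATX1, left out of the fit, has no value with the trend removed.

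**Figure D4:**
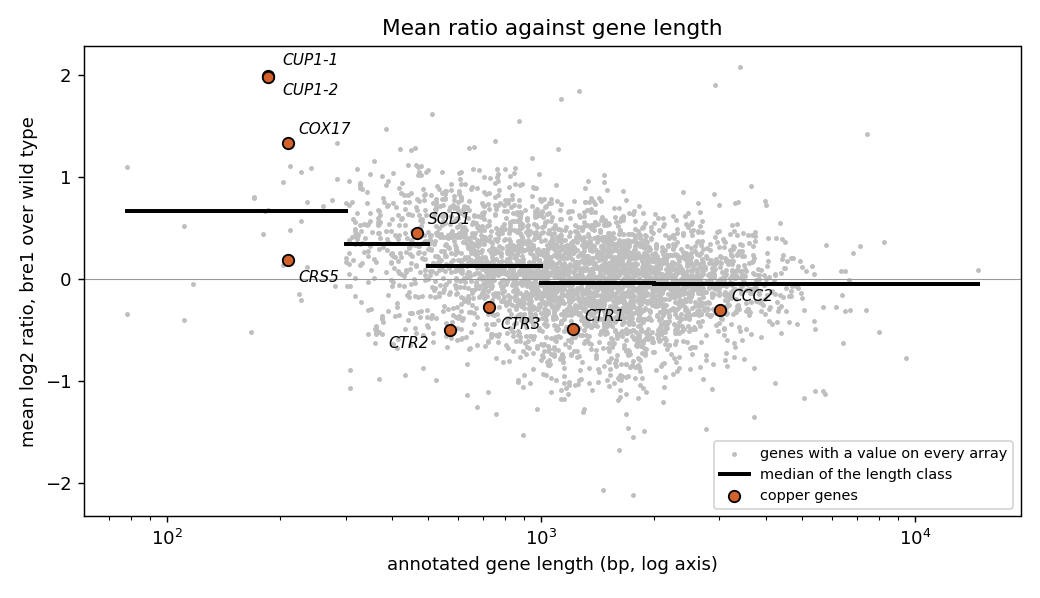
Mean log2 ratio of bre1 over wild type (vertical axis) against annotated gene length in bp (horizontal log axis) for the 3821 tested genes with an annotated length, with black bars at the median of each length class and the copper genes marked. The median falls from 0.67 in the shortest class to -0.05 in the longest, with CUP1-1 and CUP1-2 above and CRS5 below the median of their class.

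The genes whose 4 values were nearest to those of CUP1-1, by the root mean square difference over the arrays, were sought among all genes with a value on every array. Apart from CUP1-2, at 0.12, these were FUN30 (0.57), CDC15 (0.60), RPS10A (0.77), OGG1 (0.78) and QCR8 (0.79), where the median over all other genes was 2.09. No gene outside the repeat was as near as the second copy, and the mean log2 ratios of these 5 lay between 1.33 (QCR8) and 2.07 (FUN30). Nearest to CTR1 were MDL1 (0.26), SSA1 (0.27), ILV5 (0.28), MAS1 (0.29) and PIL1 (0.30), against a median of 0.94. Each of these was below 0 on arrays 1 to 3 and above 0 on array 4, as their choice by nearness to CTR1 made likely. These 5 genes lie outside copper handling, and how many of all genes have such a profile was not counted.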

How the data were processed

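The authors deposited 1 log2 ratio of the 2 channels per reading frame and array. The sources used here give no filter, background correction or strain details, and the labels point to another publication, which was not used. Base, single scaling factor and turned arrays were read from the values. Of 5500 frames, 5470 were found by systematic name in RefSeq's R64 gene table, the source of symbols, lengths (introns included) and neighbours. No coordinates or sequences are printed. Genes with a value on all 4 arrays were fitted in R 4.3.3 with limma 3.58.1 (intercept, eBayes, two-sided, Benjamini-Hochberg over 3840 genes, threshold 0.05). The fit was tested on simulated data of 3840 genes with independent arrays, where it found 98% of genes changed by 1 and 100% of those changed by 2 on the log2 scale, and 6.16% of its calls were false. The simulated arrays shared no dye or array effects, so these shares need not hold for the data. The length trend was a loess curve (span 0.5). Members and lists were chosen with earlier results of these data known. Named are all members, listed genes that passed (in lists with no call, the 2 of smallest p), the CUP1 neighbours and the 5 nearest profiles; others are marked where named. Scanner intensities were not analysed here, and 4 arrays limit the precision.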

Additional observations from a re-analysis of the deposited data

Results flagged for a closer look

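Of 32 genes examined, 2 had 1 array far from the other 3 by Dixon's test, which chance alone would give for about 1 gene in 20. SOD2 had a log2 ratio of 0.25 on array 2, against 0.83, 0.87 and 0.91 on arrays 1, 3 and 4. OGG1, one of the profiles nearest to CUP1-1, had 2.69 on array 3, against 1.37 to 1.58 on the other arrays.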

How the results depend on the processing

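Over all genes, 410 passed in the fit as reported (226 higher, 184 lower), 897 with a dye term, 685 with array weights and 679 with arrays averaged as assumed pairs; leaving out 1 array gave from 0 to 677, with 54 without array 1, 0 without array 2 (815 at an unadjusted p under 0.05 in limma), 187 without array 3 and 677 without array 4. In the wider list, CUP1 neighbours included, 6 genes passed, 14 with the dye term, 10 with array weights and 10 with assumed pairs. With 1 array left out from 0 to 12 passed. With the length trend removed 196 genes were higher and 288 lower. The difference between Cup2 targets and uptake genes, 1.67, was 0.74 without CUP1 (chosen after the data were seen). With 1 array left out, and each CUP1 copy counted as a gene, it was from 1.41 to 1.97. The difference was above 0 on each of the 4 arrays, so no such mean could fall below 0. Of 96 values of members under the alternatives, 95 moved by less than 1 SD. Most of these outcomes were fixed in advance and show no stability. The dye term, the robust variance prior, the assumed pairs and the looser array requirement leave these means unchanged. Leaving out 1 of 4 arrays cannot move a mean by 1 SD. The exception was CRS5 with the length trend removed. The mean of MAC1 ranged from -0.024 (without array 2) to 0.34 (without array 3). The cause of these shifts was not tested. No replicate block was fitted, since the arrays form 1 group, and the pairs averaged above are assumed and not given by the labels.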
